A study of Mus musculus with 6 samples.

Results

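The genes described here are 8 transcription factors that build autonomic neurons: Phox2a, Hand1, Hand2, Gata2, Gata3, Isl1, Tfap2a and Tfap2b. They were taken by name from 19938 genes measured on a mouse expression array, and all 8 had 1 probe set with their single symbol. RNA levels were measured in enterospheres, floating spheres of neural progenitor cells grown from the gut muscle of newborn C57BL/6 mice with epidermal and fibroblast growth factors and then kept in differentiation medium without those factors. The T3 group held 3 samples kept for 1 day with 3,5,3'-triiodothyronine (T3) at 100 nM, as the unit was read from the labels, and the control group held 3 untreated samples in the same medium. Each sample pooled the guts of 3 mice (strain C57BL/6, stage P0) and had 1 array, with no transgene or mutation named. The design asks which genes respond when differentiating enteric progenitors receive thyroid hormone. Values are log2 expression values (1 unit is a doubling of signal), and the 3 arrays per group limit their precision.

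Autonomic neurons, including those of the gut wall, arise from the neural crest, and a network of transcription factors gives them their identity. The paired-like homeodomain protein Phox2a acts in this network together with the basic helix-loop-helix proteins Hand1 and Hand2, the zinc-finger proteins Gata2 and Gata3, the LIM-homeodomain protein Isl1 and the AP-2 proteins Tfap2a and Tfap2b. In sympathetic neurons these factors turn on the genes of noradrenaline synthesis, whereas enteric neurons use many transmitters and need Hand2 for their terminal differentiation. Several of the factors also work outside neurons, Hand1 in heart and gut, Gata2 in blood and endothelial cells and Gata3 in T cells.

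Of the 8 factors, 2 were higher with T3 and none was lower. Phox2a rose 1.49-fold and Hand1 rose 1.29-fold, while Hand2, Gata2, Gata3, Isl1, Tfap2a and Tfap2b had log2 differences between 0.01 and 0.09 in size that did not pass the test. Each gene was tested in limma across all genes, and a gene was called at a Benjamini-Hochberg adjusted p under 0.05. Over all genes 3.1% were called, 2.28% as higher and 0.823% as lower, so 2 of 8 higher stands beside 2.28%. The factors were named with results of these arrays known, so that count is a description. The median log2 difference was 0.01 over the 8 factors and 0.0088 over all genes. For the same 2 factors all T3 values lay outside the control values, which held for 19.5% of all genes.

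The region just before the start of Phox2a, the factor with the larger rise, and of Hand2, the factor whose value differed least, are shown for comparison. They hold the 250 bases before the transcription start in RefSeq on build GRCm38.p6, 5′ to 3′, both on the plus strand, Phox2a at chr7:101818063-101818312 and Hand2 at chr8:57320733-57320982. Capitals mark matches to GATAA, the core bound by GATA factors, on either strand, and to TAATTA, a core bound by many homeodomain proteins.
Phox2a: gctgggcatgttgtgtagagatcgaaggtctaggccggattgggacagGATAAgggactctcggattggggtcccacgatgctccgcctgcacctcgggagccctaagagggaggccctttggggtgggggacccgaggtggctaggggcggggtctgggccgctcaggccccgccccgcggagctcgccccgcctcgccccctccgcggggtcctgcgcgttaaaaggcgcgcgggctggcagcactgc
Hand2: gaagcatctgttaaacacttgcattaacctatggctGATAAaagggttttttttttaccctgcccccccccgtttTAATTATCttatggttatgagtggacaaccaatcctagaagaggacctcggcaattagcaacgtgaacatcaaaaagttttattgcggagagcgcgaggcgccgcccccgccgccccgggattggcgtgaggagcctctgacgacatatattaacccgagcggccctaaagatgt

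The Phox2a window held 1 GATAA match, whose first base lay 202 bases before the start. The Hand2 window held 2 GATAA matches, at 214 bases and, on the minus strand, at 172 bases before the start, and the latter overlapped a TAATTA match. G and C made up 70.4% of the Phox2a window and 49.2% of the Hand2 window, against a median of 52.4% over 32841 promoter windows of the same length. Windows were found for 7 of the 8 factors, 9 windows in all because Gata2 and Tfap2a had 2 each; Hand1 had none in the table. GATAA occurred in 3 of the 9 windows and in 22.6% of all windows, and TAATTA in 2 of the 9 and in 4.84% of all. The AP-2 core GCCNNNGGC occurred in 2 of the 9, in Gata2 and with 3 matches in Gata3, and in 13.7% of all windows. The E-box CANNTG, the kind of site that Hand proteins bind, occurred in 3 of the 9 and in 66.2% of all windows; it is not in capitals above. The half-site AGGTCA, which thyroid hormone receptors bind, was searched on both strands and was in none of the 9 windows, against 14.03% of all windows. These are matches of letters within 250 bases and say nothing of binding here or elsewhere.

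Phox2a is a homeodomain protein that binds and activates the promoter of Dbh, the gene of the last enzyme of noradrenaline synthesis (probe set 10555570). Its log2 value was 8.26, 8.32 and 8.49 in control replicates 1, 2 and 3, and 8.88, 8.93 and 8.98 in T3 replicates 1, 2 and 3. Every T3 array lay above every control array, with a gap of 0.39 between the highest control and the lowest T3 value. The mean rose from 8.36 ± 0.12 (SD, n = 3) to 8.93 ± 0.05 (SD, n = 3), a log2 difference of 0.58 ± 0.08 (SE) with a 95% interval of 0.39 to 0.76 (adjusted p = 0.00847, limma). In fold of signal that interval ran from 1.31 to 1.69. Among the 454 genes called higher, 216 had a larger log2 difference, and the median of those 454 was 0.56. The call was lost without control replicate 1, at a log2 difference of 0.53 ± 0.09 (SE, adjusted p = 0.0527, limma). The call passed without any other single array, as without T3 replicate 3 at 0.55 ± 0.10 (SE, adjusted p = 0.0457, limma). Over all genes 191 were called without control replicate 1 and 256 without T3 replicate 3, against 618 with all arrays. Why the Phox2a call was lost was not tested.

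**Figure D1:**
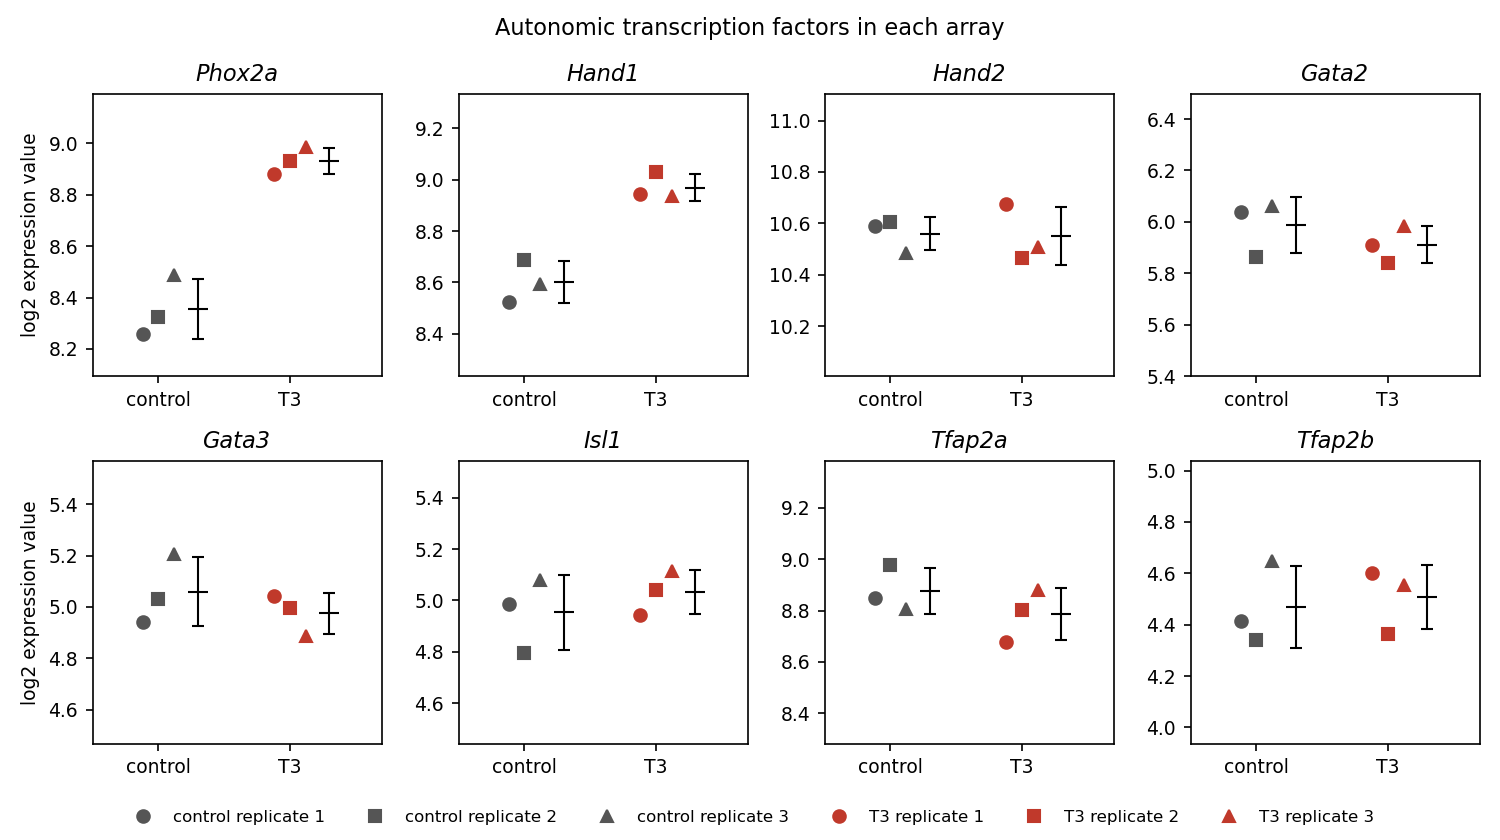
Log2 expression value (vertical axis, 1.1 log2 units in every panel) of each of the 8 factors in the control and T3 arrays, with a symbol per replicate number and, to the right of each group, the mean with its SD (n = 3). The groups stand apart for Phox2a and Hand1 and overlap for the other 6 factors.

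Hand1 and Hand2 are related basic helix-loop-helix proteins, and Hand1 was the second factor that rose (probe set 10386110). Its log2 value was 8.52, 8.69 and 8.59 in control replicates 1, 2 and 3, and 8.94, 9.03 and 8.93 in T3 replicates 1, 2 and 3. The T3 arrays again lay above all controls, with a gap of 0.25. The log2 difference was 0.37 ± 0.07 (SE) with a 95% interval of 0.20 to 0.54 (adjusted p = 0.0354, limma), from 8.60 ± 0.08 (SD, n = 3) to 8.97 ± 0.05 (SD, n = 3). Of the 454 genes called higher, 421 had a larger difference. The call of Hand1 was not stable when 1 array was left out. It passed without control replicate 2 and was lost without any other single array. Over these 6 fits the log2 difference stayed at 0.33 to 0.41, with an adjusted p of up to 0.174 in limma.

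Hand2, the Hand factor that enteric neurons require, was bright and differed little (probe set 10571860). Its log2 value was 10.59, 10.61 and 10.49 in the controls and 10.68, 10.47 and 10.51 with T3. The highest and the lowest of the 6 values were both T3 arrays, so the groups overlapped. The log2 difference was -0.01 ± 0.08 (SE) with a 95% interval of -0.19 to 0.18 (adjusted p = 0.987, limma), and its sign turned when arrays were centred on their median. Within each array the Hand1 value minus the Hand2 value was -2.07, -1.92 and -1.89 in controls and -1.73, -1.44 and -1.57 with T3, a shift of 0.38 between the group means. These groups did not overlap, and the two-sided exact permutation p was 0.1, the smallest that 3 against 3 arrays can give.

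The value of Phox2a minus that of Hand2 was -2.33, -2.28 and -2.00 in controls and -1.80, -1.54 and -1.52 with T3, a shift of 0.59 with no overlap (two-sided exact permutation p = 0.1). Phox2a minus Hand1 differed by 0.21, again with no overlap and p = 0.1 by the same exact test. Of 15 such pairs computed, the 7 with Phox2a did not overlap, and of 6 pairs of Hand1 with the factors not called, 4 did not overlap while those with Isl1 and Tfap2b did (exact permutation p = 0.2 each). The smallest p over the 15 pairs after Benjamini-Hochberg adjustment was 0.136, and no pair could have passed with 3 against 3 arrays, so these values are descriptions. The pairs also contain the differences of Phox2a and Hand1 given above.

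Gata2 and Gata3 are zinc-finger factors that keep noradrenergic genes on in sympathetic neurons. Gata2 (probe set 10539873) had log2 values of 6.04, 5.86 and 6.06 in controls and 5.91, 5.84 and 5.98 with T3, a log2 difference of -0.08 ± 0.08 (SE) with a 95% interval of -0.26 to 0.11 (adjusted p = 0.812, limma). Gata3 (probe set 10479981) had 4.94, 5.03 and 5.21 in controls and 5.04, 5.00 and 4.89 with T3, a log2 difference of -0.08 ± 0.09 (SE) with an interval of -0.28 to 0.12 (adjusted p = 0.805, limma). For both genes the groups overlapped. The Gata2 minus Gata3 difference moved by 0.0083 with overlapping groups (two-sided exact permutation p = 0.7).

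Isl1, which sympathetic and sensory neurons need as they mature, had log2 values of 4.99, 4.79 and 5.08 in controls and 4.94, 5.04 and 5.11 with T3 (probe set 10412335). The groups overlapped, the log2 difference was 0.08 ± 0.09 (SE) and the 95% interval was -0.13 to 0.29 (adjusted p = 0.835, limma).

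Tfap2a, an AP-2 factor of the neural crest, was brighter than the array medians (probe set 10408798), with 8.85, 8.98 and 8.80 in controls and 8.68, 8.80 and 8.88 with T3. Its log2 difference was -0.09 ± 0.08 (SE) with a 95% interval of -0.28 to 0.10 (adjusted p = 0.768, limma). Its relative Tfap2b, found in sympathetic neurons (probe set 10345016), had 4.41, 4.34 and 4.65 in controls and 4.60, 4.36 and 4.55 with T3, a log2 difference of 0.04 ± 0.10 (SE) with an interval of -0.20 to 0.27 (adjusted p = 0.952, limma). The T3 and control values of both genes were interleaved. Over the 6 factors not called, the interval reached at most 0.29 in size, or 1.22-fold of signal.

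**Figure D2:**
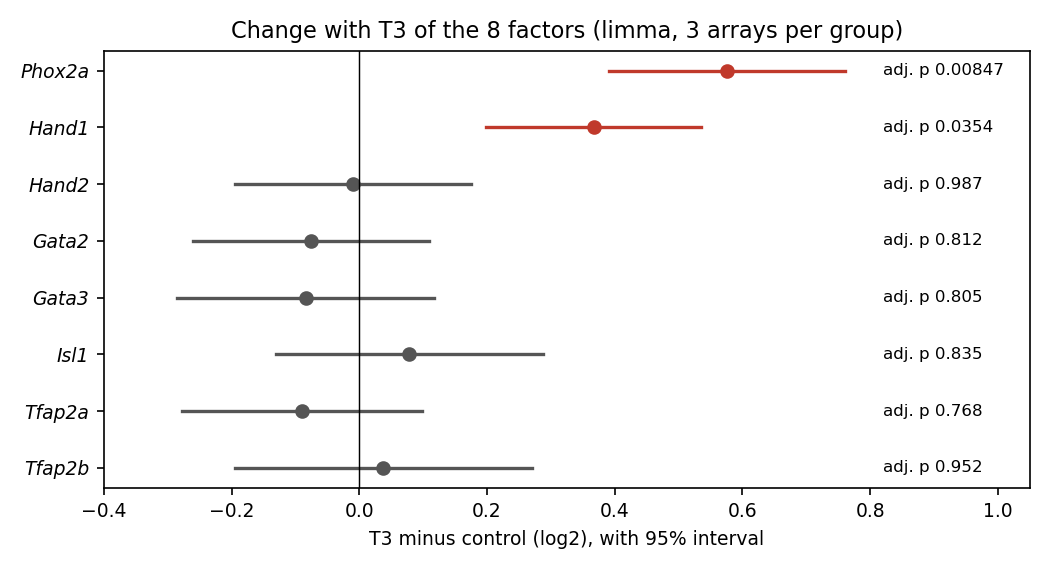
Difference T3 minus control (horizontal axis, log2) of each factor with its 95% interval from limma, red where the adjusted p was under 0.05; the adjusted p stands at the right. The intervals of Phox2a (0.39 to 0.76) and Hand1 (0.20 to 0.54) lie above 0 and those of the other 6 factors span it.

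The factors fell into a bright and a dim set by their position on the arrays. Phox2a, Hand1, Hand2 and Tfap2a lay above the array median (6.09 to 6.15) on 6 of 6 arrays. Gata2, Gata3, Isl1 and Tfap2b lay below it on every array, and Tfap2b was above the 25th percentile (4.47 to 4.53) on only 3 of 6. Detection calls are not part of the values, and these 4 cannot be placed above or within background, where a change of signal is compressed. Both factors that rose were thus in the bright set, and the small differences of Gata2, Gata3, Isl1 and Tfap2b do not show that their RNA held its level. Brightness depends on the probes as well as on the RNA, so the factors are not ranked by level.

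**Figure D3:**
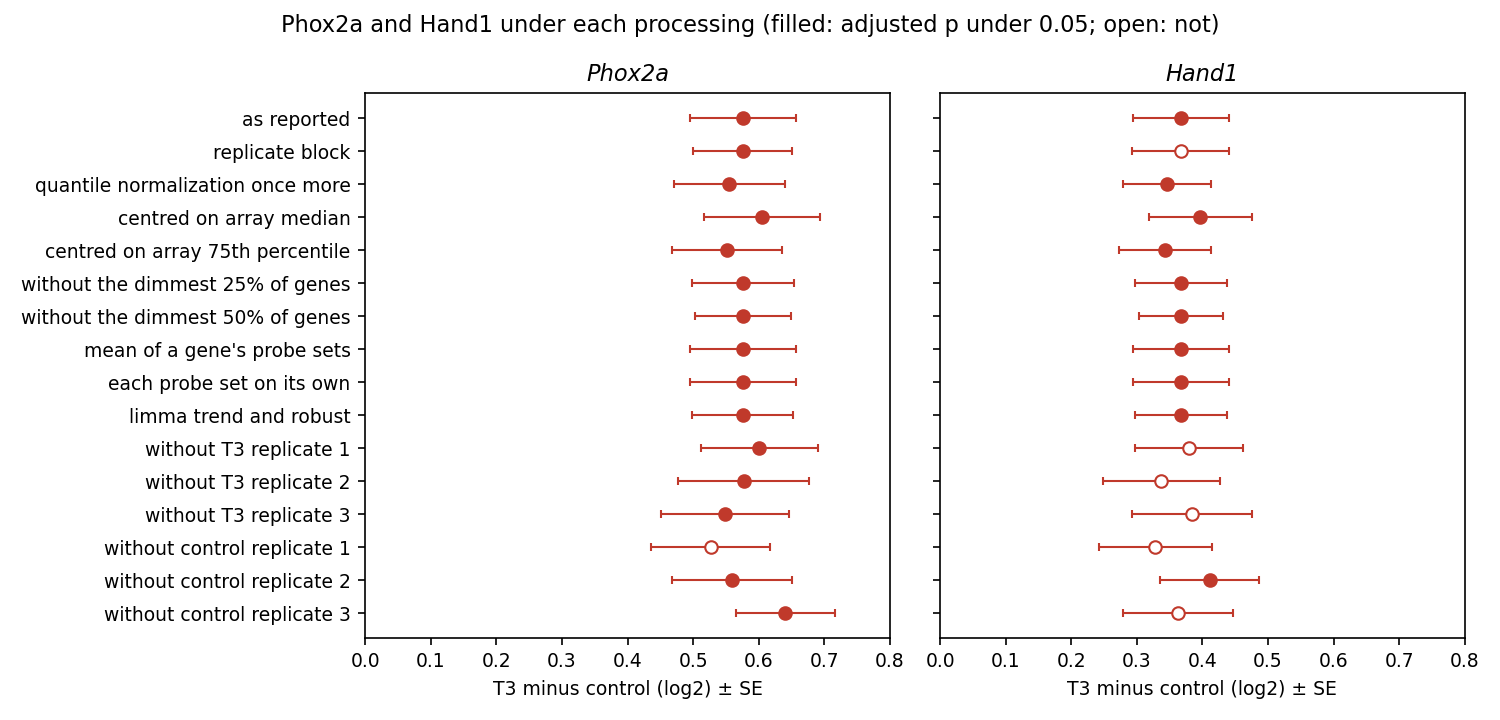
Difference T3 minus control (log2) ± SE of Phox2a and Hand1 as reported and under each other processing or with 1 array left out, filled where the adjusted p was under 0.05 and open where it was not. Phox2a lies between 0.53 and 0.64 and is open once; Hand1 lies between 0.33 and 0.41 and is open 6 times.

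Other factors of the autonomic lineage included 3 that fell and none that rose. Of 22 measured genes, 19 did not pass, and the list median was -0.05; 13.6% were called, against 3.1% of all genes. Sox11, a factor of immature neurons, fell from 8.44 to 7.23, a log2 difference of -1.21 ± 0.07 (SE, adjusted p = 0.000176, limma). Satb1, a chromatin organiser, fell by 0.42 and Insm1, a zinc-finger factor of newly formed neurons and endocrine cells, fell by 0.37 on the log2 scale (adjusted p = 0.0154 and 0.0221, limma). With each array left out in turn, Sox11 always passed. The Satb1 call needed T3 replicates 2 and 3 and control replicate 1 (adjusted p reached 0.0797), and the Insm1 call needed all arrays but control replicate 2 (it reached 0.0982). The list was written with earlier results of these arrays known, as were the lists that follow.

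Relatives and partner proteins of the 8 factors gave 1 call among 23 measured genes, or 4.35%, near the 3.1% of all genes. Twist1, a basic helix-loop-helix protein of mesenchyme related to the Hand factors, fell by 0.49 ± 0.09 (SE) on the log2 scale (adjusted p = 0.0285, limma). The other 22, which include the other Gata and AP-2 genes, the helix-loop-helix partners Tcf3, Tcf4 and Tcf12 and the LIM partners Ldb1 and Ldb2, did not pass, and the median was -0.02. Among them Gata6, chosen after its value was seen, had a log2 difference of -0.40 ± 0.11 (SE, adjusted p = 0.106, limma). Of the 23 genes, 8 had a log2 difference above 0. The call of Twist1 needed all arrays but control replicate 1, and its adjusted p reached 0.117 with an array left out.

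Genes of the noradrenergic phenotype, many of them known targets of this network, included 4 that rose and none that fell among 13 measured, with a median log2 difference of 0.22; 30.8% were called, against 3.1% of all genes. Dbh had log2 values of 5.39, 5.17 and 4.96 in control replicates 1, 2 and 3 and 5.82, 6.28 and 6.14 in T3 replicates 1, 2 and 3, with no overlap and a log2 difference of 0.91 ± 0.14 (SE, adjusted p = 0.0126, limma). Its control values lay below the array medians and are not known to be above background. Cyb561, which supplies electrons to Dbh in secretory granules, rose by 1.34 ± 0.10 (SE), the neuropeptide gene Npy by 0.99 ± 0.18 (SE) and the granule protein gene Chga by 0.51 ± 0.08 (SE) on the log2 scale (adjusted p = 0.000617, 0.0251 and 0.0156, limma). Of the biosynthetic enzymes before Dbh, chosen after their values were seen, Th had a log2 difference of 0.22 ± 0.12 (SE, adjusted p = 0.478) and Ddc one of -0.35 ± 0.15 (SE, adjusted p = 0.340). With each array left out in turn, Cyb561 always passed. The Dbh call needed T3 replicates 2 and 3 (adjusted p reached 0.0533), the Chga call T3 replicates 1 and 3 and control replicate 1 (0.0692) and the Npy call all T3 arrays and control replicate 3 (0.0953).

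Cholinergic genes and receptors for neurotrophic factors gave 4 higher and none lower among 11 measured, with a median of 0.33; 36.4% were called, against 3.1% of all genes. The nicotinic receptor subunit gene Chrnb4 rose by 0.48 ± 0.07 (SE), the acetylcholinesterase gene Ache by 0.43 ± 0.09 (SE), and the coreceptor genes Gfra3 and Gfra2 by 0.59 ± 0.09 (SE) and 0.39 ± 0.08 (SE) on the log2 scale (adjusted p = 0.0129, 0.0364, 0.0145 and 0.0378, limma). Ret, the receptor on which enteric progenitors depend, was chosen after its value was seen and had a log2 difference of 0.26 ± 0.08 (SE, adjusted p = 0.139). Likewise chosen, the receptor gene Ntrk3 had -0.31 ± 0.08 (SE, adjusted p = 0.0707, limma). The cholinergic gene Chat had -0.01 ± 0.14 (SE, adjusted p = 0.992, limma), and 9 of the 11 genes had a log2 difference above 0. The Ache and Gfra2 calls needed all arrays but control replicate 2 (adjusted p reached 0.145 and 0.144), the Gfra3 call T3 replicates 2 and 3 and control replicate 1 (0.0667) and the Chrnb4 call T3 replicate 3 and control replicate 1 (0.0773).

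Bone morphogenetic proteins (BMP) are signals that switch on Phox2a, Hand and Gata genes in the sympathetic lineage, and their Id targets block helix-loop-helix partners. Of 18 measured genes of this pathway, 2 rose and 16 did not pass, with a median of 0.02; 11.1% were called, against 3.1% of all genes. Grem1, a secreted BMP antagonist, rose by 0.72 ± 0.10 (SE) and Id2 by 0.44 ± 0.08 (SE) on the log2 scale (adjusted p = 0.00785 and 0.0313, limma). The other Id genes measured, chosen after their values were seen, did not pass. Id1 had a log2 difference of -0.14, Id3 one of 0.02 and Id4 one of -0.03 (adjusted p = 0.511, 0.982 and 0.953, limma). With each array left out in turn Grem1 always passed, and Id2 passed only when control replicate 2 was the one left out (adjusted p reached 0.145). Over all 5 lists 14 genes were called. Leaving out T3 replicate 1, 2 or 3 left 7, 5 or 3 calls, and leaving out control replicate 1 or 3 left 6 or 8.

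**Figure D4:**
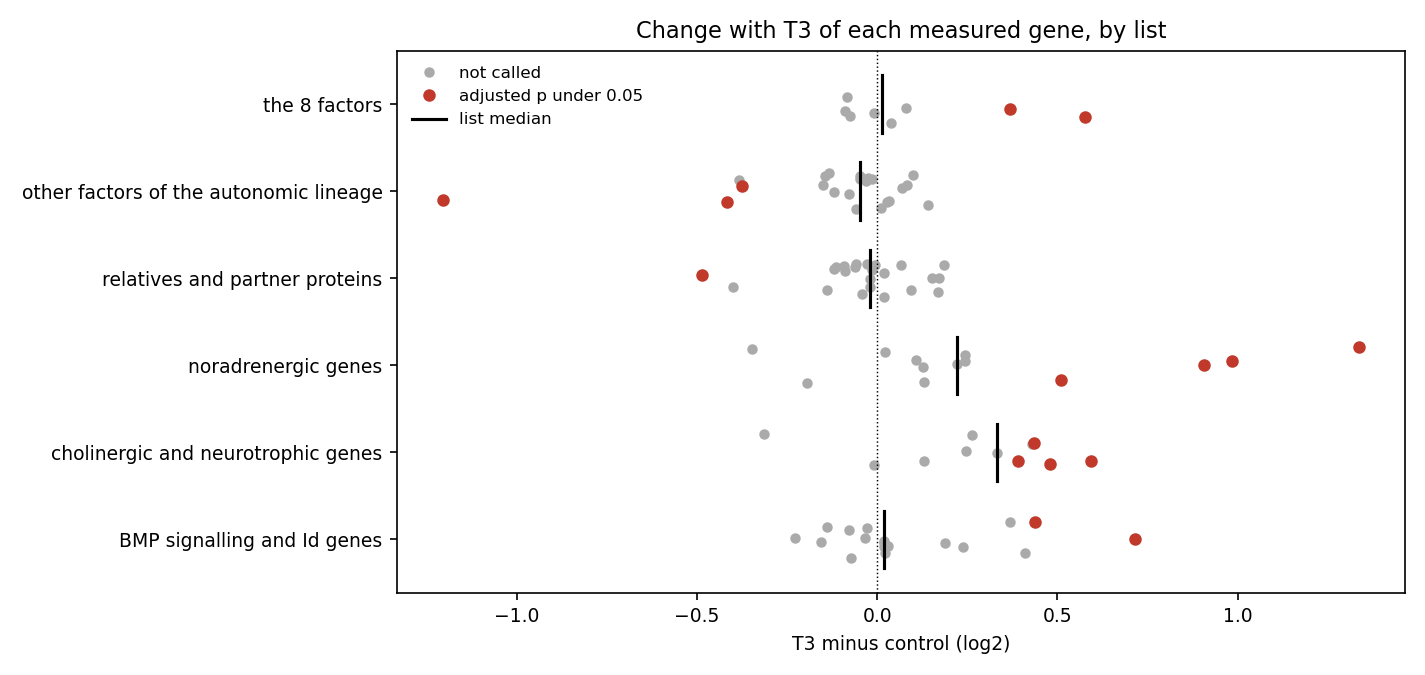
Difference T3 minus control (log2, horizontal axis) of each measured gene of the 8 factors and of 5 related lists, red where the adjusted p was under 0.05, with a black bar at each list's median; vertical scatter within a list has no meaning. Called genes lie to the right for the noradrenergic, cholinergic and BMP lists and to the left for the other lineage factors and the relatives.

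The genes whose profiles over the 6 arrays were most like that of Phox2a were Got1, Plpp4, Gfra3, Galnt14 and Map6d1, with a root-mean-square difference of 0.04 to 0.05 log2 units after each gene's mean was taken off. For Hand1 they were Denn2b, Itpk1, Scmh1, Desi1 and Dclk1, at 0.03 to 0.04. Because likeness was measured over both groups, these are genes with a T3 difference of similar size, 0.52 to 0.62 for the first set and 0.30 to 0.38 for the second. The protein-coding genes next to the 8 factors on their chromosomes were taken in the order of RefSeq on GRCm38.p6. Of 16 neighbours none was called in limma, where 3.1% of all genes were, so 16 genes are too few to read this count. An unadjusted p under 0.05 was found for 2 of the 16 (13.7% of all genes had one). The log2 differences of the neighbours lay between -0.23 and 0.17. Beside Phox2a, Clpb had 0.17 (adjusted p = 0.319) and Inppl1 0.13 (adjusted p = 0.542). Beside Hand1, Sap30l had -0.03 (adjusted p = 0.942) and Larp1 -0.15 (adjusted p = 0.374).

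The spheres were mixed, and markers of several cell types moved alongside. Whole spheres were measured, so fewer cells of a type and less RNA per cell cannot be told apart. Of 12 neuron markers, 2 were higher (Prph at 0.94 and Snap25 at 0.33) and none lower, with a median of 0.04. That is 16.7% called, against 3.1% of all genes. An unadjusted p under 0.05 in limma was found for 4 of the 12, against 13.7% of all genes, and 8 had a log2 difference above 0. The summed linear signal of the neuron list was 16673 to 18353 in controls and 18197 to 19218 with T3, which overlapped; without Gap43, its brightest gene, it was 12558 to 14465 and 14622 to 15666, which did not. Of 9 progenitor and glia markers none was called by limma and 1, Ret, had an unadjusted p under 0.05 (median -0.08, summed signal 18503 to 19164 and 17932 to 19491). Of 10 fibroblast and mesenchyme markers 1 was higher (Thy1, 1.24) and none lower, with a median of -0.02 and a summed signal of 28209 to 29509 and 28827 to 29132. Of these markers 10% were called, against 3.1% of all genes. An unadjusted p under 0.05 in limma was found for 3 of them, against 13.7% of all genes. They were Thy1 and, with lower values, Pdgfrb (-0.26) and Col1a2 (-0.24).

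Smooth muscle markers moved both ways, more of them upwards. Of 10 genes, Myl9, Myocd and Myh11 were higher (0.50, 0.54 and 0.60) and Tagln and Acta2 lower (-0.72 and -0.38). That is 50% called, against 3.1% of all genes. Of the 10, 7 had a log2 difference above 0, the median was 0.27, and 8 had an unadjusted p under 0.05 against 13.7% of all genes. The summed signal was 2826 to 3136 in controls and 2847 to 3043 with T3, and without Acta2, the brightest gene, 1757 to 1939 and 2008 to 2167, which did not overlap. Of 6 markers of interstitial cells of Cajal 2 were higher (Prkcq, 0.73, and Ano1, 0.43), with a median of 0.16 and sums of 5433 to 5895 and 6260 to 6492, which did not overlap. All 6 had a log2 difference above 0, and 33.3% were called, against 3.1% of all genes. An unadjusted p under 0.05 in limma was found for 3 of the 6, against 13.7% of all genes. Of 10 endothelial markers 30% were called, against 3.1% of all genes. Plvap was higher (0.42), Egfl7 and Kdr were lower (-0.70 and -0.41), 7 of the 10 markers had a difference above 0 and the median was 0.08. Their sum was 969 to 1088 in controls and 843 to 935 with T3, and without Egfl7, the brightest gene, 516 to 578 and 552 to 639, so the lower sum rested on that gene. No marker of mesothelium (6 genes, median 0.20) or leukocytes (10 genes, median -0.05) was called by limma, with 1 gene each, Wt1 and Coro1a, at an unadjusted p under 0.05. Their summed signals were 316 to 363 and 348 to 475, and 435 to 462 and 427 to 466. Without its brightest gene, the sum of each of these lists still overlapped between control and T3. The same held for progenitor and glia markers (14506 to 15435 and 14294 to 15785) and for fibroblast and mesenchyme markers (18415 to 19695 and 18823 to 19562). For interstitial cells of Cajal that sum did not overlap (2548 to 3090 and 3315 to 3544). The part of such shifts in the rises of Phox2a and Hand1 was not tested.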

How the data were processed

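Total RNA of 6 samples (3 T3, 3 control) was measured on Affymetrix whole-transcript arrays. The authors deposited log2 expression values for 35556 probe sets. RMA and Partek version 6.5 are named in the submitters' processing notes; for their settings and for the build the entry is "not given in the sources used here". RMA as usually run equalises the distributions of arrays, which removes changes common to most genes. The platform annotation gave 1 symbol to 21789 probe sets, several to 1621 and none to 12146. Only those with 1 symbol were used, and 999 genes with more than 1 were represented by the probe set of highest mean, which left 19938 genes.

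T3 minus control was fitted with limma 3.58.1 in R 4.3.3 (lmFit, eBayes), two-sided, without a block, and adjusted over all genes. Errors marked SE and 95% intervals come from limma. Tested on simulated data for this comparison (19938 genes, 200 changed, 10 runs per size), the fit recovered 45.3% of log2 changes of 0.5 and 93.0% of changes of 1, and called 0 genes with no change put in. No 2 arrays were duplicates: the SD of their difference over genes was at least 0.137.

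The labels do not say that samples of a group came from separate preparations, so the spread behind the p-values may be technical. The members and lists were chosen with earlier results of these data known. All 8 members are named, of each list the called genes (at most 4), of each marker list at most 2 genes of smallest p, and for called members the 5 most similar profiles. Th, Ddc, Chat, Gata6, Ret and Ntrk3 among neurotrophic receptors, Id1, Id3, Id4, Gap43, Col1a2, Myocd, Myh11, Acta2 and Plvap were named after their values were seen.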

Additional observations from a re-analysis of the deposited data

How the results depend on the processing

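Over 15 other settings (a replicate block, quantile normalization once more, arrays centred on the median or 75th percentile, no genes from the dimmest 25% or 50%, averaged or separate probe sets, limma with trend and robust fitting, and leaving out each array), Phox2a and Hand1 were higher in all, with adjusted p under 0.05 in 14 and 9 of the 15. No factor was called lower in any of them. The block, the removal of dim genes, the choice of probe sets and the trend fit cannot change the log2 difference of Phox2a or Hand1. They change only its SE and adjusted p, so a rise in those settings was fixed in advance. The 2 factors called higher became 1 with the replicate block, where Hand1 had adjusted p = 0.0599 and Phox2a passed, and 0 to 2 without 1 array. Replicate numbers were not shown to pair the samples: deviations of same-numbered arrays correlated at 0.18, 0.02 and 0.00017, replicates 2 and 3 of either group did not correlate best with their own number, and with the block 472 genes were called against 618. Without 1 array, 191 to 640 genes were called over all genes, and 3 to 13 in the 5 related lists, against 14 with all arrays. Centring on the median made 81.5% of the calls higher, and on the 75th percentile 67.6%, against 73.5%. Small differences turned sign: Hand2 was 0.0197 after centring on the median and -0.0733 to 0.0326 without 1 array, Isl1 -0.00133 to 0.141 and Tfap2b -0.0258 to 0.128 without 1 array. With the block, Ache, Gfra2, Insm1 and Twist1 lost their calls (adjusted p = 0.0637, 0.0620, 0.0572 and 0.0632), and Gfra2 also after centring on the 75th percentile (0.0510). The cause of these changes was not tested. Leaving out an array also leaves fewer samples. Signal over background limits Gata2, Gata3, Isl1 and Tfap2b, which were below the array medians.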
